A study of Mus musculus with 8 samples.

Results

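The nuclear genes of respiratory complexes III, IV and V were examined in satellite cells (SCs) of sedentary and trained mice. SCs are resident stem cells that repair muscle fibres. The members were the protein-coding genes whose symbols begin with Uqcr or Atp5 or are Cyc1, Cycs, Atpif1, Fmc1 or a numbered Cox gene from Cox4 to Cox8 or Cox10 to Cox20. This rule found 56 of the 52636 genes measured, with 10 in complex III with cytochrome c, 27 in complex IV and 19 in complex V. Both groups were male C57B/6J mice, aged 10 weeks at the start, with no transgene or drug named for them. The 4 control libraries (Con1 to Con4) came from sedentary mice, and the 4 exercise libraries (Exe1 to Exe4) from mice that ran on a treadmill sloped at 5 degrees, for 4 weeks. Each week had 4 sessions of 30 min at 12 m/min. SCs were gated from digested tibialis anterior muscle by CD34 and Integrin alpha7, without CD45, CD11b, CD31 and Sca1, and about 800 cells went into each library. The study's legends count the samples of its sequencing as mice, but neither they nor the labels say whether a library is 1 animal or a pool, so the tests measure only the spread between these libraries, which may in part be technical.

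Complex III passes electrons from ubiquinol to cytochrome c, a small carrier between the inner and outer mitochondrial membranes. Complex IV (cytochrome c oxidase) passes them on to oxygen, and the proton gradient that both complexes help to build drives complex V, the ATP synthase. A few core subunits of these complexes are encoded in mitochondrial DNA, and the remaining subunits and all assembly factors are nuclear genes. Quiescent SCs hold few mitochondria and gain more when they are activated, whereas muscle fibres are rich in them and use muscle forms of several complex IV subunits, among them Cox6a2, Cox7a1 and Cox8b.

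Values are FPKM, the reads of a gene per kilobase of its length, scaled to a library size. Reads behind each value could be recovered. Every exercise library was shallower than every control, with 1011737 to 1200221 reads on genes and 2348 to 3289 genes with a read, against 2339966 to 3013354 reads and 5169 to 7307 genes, and the part of depth in the lower values was not tested. Shares of these are given as RPM (reads per 1000000 reads on genes). The library size inside the FPKM of Exe4 was 0.249 of its read total, so 1 read weighs more there, and reads or RPM are given beside FPKM where this matters. Exe1 and Exe2 were far more alike than other libraries of a group, with a chi-square per degree of freedom of 3.86 against 82.6 or more. This is above counting noise, which does not show that they are separate samples. Both were kept as the labels give them, and the number of members called below, 19, was 11 with the pair averaged. Con4 resembled a weighted sum of Con1 and Con3, and Exe3 one of Exe1 and Exe4. Of the 36 members with at least 50 reads in one of those controls, 34 lay between Con1 and Con3 in Con4, and for Exe3 this held for 20 of 21. Mitochondrial transcripts took 50.2% of the reads of Exe3 and 68.7% of those of Exe4, against 15.3% at most in the other libraries. Among 12 SC markers, Pax7, Itga7, Cdh15 and Calcr had no read in any library, although Itga7 encodes a protein used for the sort. Cd34, used for it too, had reads in all 8 libraries (2 to 42 in control and 4 to 112 in exercise), as did Sdc4 (19 to 324), and 1 of the 5 tested was called, Heyl, with no read in control and 243, 222, 67 and 1 in exercise (adjusted p = 0.0212 in limma). Another 4, Myf5, Myod1, Vcam1 and Fgfr4, had no read in exercise. In Con1 to Con4 Vcam1 had 0, 39, 35 and 25 reads and Fgfr4 89, 0, 0 and 28. Chrna1 had reads in Exe3 and Exe4 only (3 and 12). The summed list took 0.0047% to 0.012% of control reads and 0.00337% to 0.0623% of exercise reads. The 15 myofibre markers, of which 14 had a read, took 9.75% to 19.7% of control reads and 5.46% to 6.86% of exercise reads. Of the 13 tested, 3 were called lower (Myh1, Mb and Mylk2), which is 23.1% against 26.8% of all genes tested. The median log2 difference of the 13 was -0.65, against -1.42 for all genes tested. Mb, myoglobin, had 32868, 1241, 1071 and 12100 reads in Con1 to Con4 and 0, 0, 38 and 73 in Exe1 to Exe4. Of the 8 immune markers none had a read. The 8 fibro-adipogenic markers took 1.65% to 1.74% of control reads and 0.386% to 5.41% of exercise reads. Of the 8 tested, 1 was called lower (26.8% of all genes) and 2 higher (8.78% of all genes). Of 8 endothelial markers, Pecam1, Cdh5 and 3 others were at 0 and Flt1 had 7 reads at most. Kdr had 0 to 82786 reads in control and 0 to 8 in exercise, and Tek went the other way, with 0 to 1 read in control and 189, 194, 77 and 6 in exercise (adjusted p = 0.0281 and 0.00395 in limma). Of 7 smooth muscle and pericyte markers 3 had a read, and they took 0.00128% to 0.012% of control reads and 0.000692% to 0.0899% of exercise reads. Among them Myh11 had no read in control and 777, 757, 262 and 6 in exercise (adjusted p = 0.00646), while Acta2 had 3, 0, 301 and 249 in control and 0, 1, 4 and 1 in exercise (adjusted p = 0.22) and Pdgfrb 27 to 78 and 1 to 160 (adjusted p = 0.287). The part of these other cells in the values below was not tested.

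Of the 42 members tested, 34 had a lower mean in exercise on the log2 scale, and each complex held genes that were all but lost from the exercise libraries. Uqcrfs1 and Cyc1 of complex III, Cox7a1 of complex IV and Fmc1 and Atp5g2 of complex V had 112 to 3139 FPKM on average in control and 0 to 5.73 FPKM in exercise. Cox7a2l and Atp5sl were higher in exercise. A read was found for 48 of the 56 members, and 42 had a mean of at least 1 FPKM and were tested, 5 of them with a mean under 1 FPKM in one of the groups. With an adjusted p under 0.05 in limma on log2(FPKM + 1), 19 of the 42 members were called, which is 45.2%, against 35.6% of the 4328 genes tested. Of these, 17 were lower (26.8% of all genes) and 2 were higher (8.78% of all genes). Complex III had 5 lower of 10 tested, complex IV had 5 lower and 1 higher of 14, and complex V had 7 lower and 1 higher of 18.

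On the same scale the median log2 difference between exercise and control was -2.11 over the 42 members and -1.42 over all genes tested, so genes in general were lower too. The medians were -2.66 for complex III, -2.02 for complex IV and -2.03 for complex V. The order of members and all genes turned when groups under 3 reads were set to 3 reads (-0.60 for the members, -1.08 for all genes) and with a pseudocount of 0.1 (-2.47 and -2.59). The 4 exercise values lay below all control values for 16 members and above them for 2, where 24% and 7.62% of all genes did so. In RPM these counts were 19 and 2, against 25.9% and 5.06%.

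**Figure D1:**
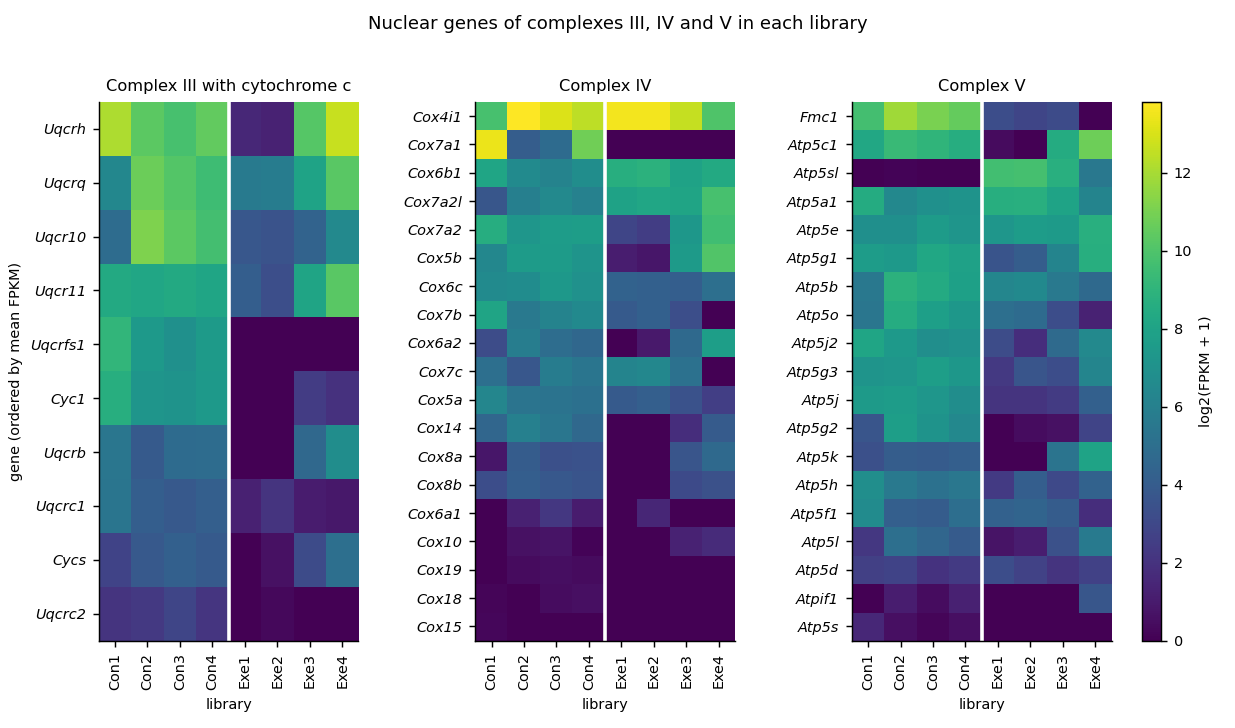
Level of the 48 members with a read in each library, as log2(FPKM + 1) in colour, with genes in rows ordered by mean FPKM within each complex and libraries in columns (Con, control, Exe, exercise). Uqcrfs1, Cox7a1 and Fmc1 are darker in the exercise columns, Atp5sl is dark in the control columns, and Exe4 differs from Exe1 and Exe2 for many members.

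The count depended on the scaling and on the libraries in the fit. With quantile normalization, which moved the median of all genes to -0.69, 7 members were lower and 2 higher, so that 21.4% of the members were called against 22.9% of all genes. The 10 calls lost there were Uqcrc1 (log2 difference -1.69, adjusted p = 0.0996 in limma), Uqcrc2, Uqcr10, Cox14, Cox5a, Cox6c, Cox7b, Atp5h, Atp5j2 and Atp5o. With Exe1 and Exe2 averaged as 1 sample, 10 members were lower and 1 higher of 43 tested (25.6% called, against 13.6% of all genes). With Con4 and Exe3 also left out, neither a member nor any other gene had an adjusted p under 0.05 in limma, and 10 members had an unadjusted p under 0.05. The number called was 10 without Con3, 9 without Con4, 11 without Exe1 or Exe2 and 8 without Exe3, and 22 without Exe4. Over the fits without 1 library, 18.6% to 52.4% of members and 11.9% to 47.5% of all genes were called, and the share of members was the lower one only without Con1 (46.5% against 47.5%). Called in all 8 fits that leave out 1 library were Cyc1, Uqcrc1, Uqcrfs1, Cox7a1, Atp5g2, Atp5j, Atp5sl and Fmc1.

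Within complex III, Uqcrfs1 and Cyc1, its catalytic subunits encoded in the nucleus, had the most negative log2 differences. The remaining catalytic subunit, mt-Cytb, is encoded in mitochondrial DNA and had a log2 difference of 1.73 (adjusted p = 0.336 in limma). Uqcrfs1 (ENSMUSG00000038462, chr13:30540308-30545362 on mm10) encodes the Rieske iron-sulfur protein, through which electrons leave ubiquinol. It had 541, 179.7, 119.5 and 183 FPKM in Con1 to Con4, from 636 to 1692 reads, and no read in Exe1 to Exe4. Against the 3 reads per library that a count of 0 allows, it was at least 83.1-fold lower in exercise, and at least 52.2-fold lower without Con1. The log2 difference was -7.75 ± 0.69 (standard error, adjusted p = 0.000409). Cyc1, cytochrome c1, which hands electrons to cytochrome c, had 397, 146, 133.9 and 174 FPKM in Con1 to Con4 and 0, 0, 4.53 and 2.91 FPKM in Exe1 to Exe4, the last 2 from 6 reads and 1 read. Its log2 difference was -6.48 ± 0.83 (adjusted p = 0.000997), and the mean fell 114-fold, with no overlap between the groups.

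The core proteins that hold complex III together were low in all libraries but still differed. Uqcrc1 had 39.6, 16.3, 13.4 and 17.2 FPKM in control and 1.45, 3.18, 1.09 and 0.84 FPKM in exercise, a log2 difference of -3.05 ± 0.66 (adjusted p = 0.0102). Uqcrc2 had 3.25, 3.84, 6.42 and 3.44 FPKM in control, from 148 reads in all, and a single read among the exercise libraries, in Exe2. Its log2 difference was -2.27 ± 0.49 (adjusted p = 0.0101), and its share of reads was 60.6 times higher in control, with an exact 95% interval of 10.7 to 2410 that covers counting error only. In both genes every control value lay above every exercise value.

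Of the small subunits of complex III and cytochrome c, only Uqcr10 was called. It had 28.4, 2223, 1297 and 831 FPKM in Con1 to Con4 and 12.3, 10.7, 20.1 and 89.1 FPKM in Exe1 to Exe4, and its log2 difference was -4.47 ± 1.34 (adjusted p = 0.0333). The groups overlapped because Con1 was below Exe4, although in RPM Con1 (16.2) was just above Exe4 (13.0). Uqcrh, the hinge protein that helps bind cytochrome c, had the highest mean of complex III. It had 4402, 1266, 880.4 and 1420.0 FPKM in control, and 1.93, 1.52, 1156 and 6477 FPKM in exercise, so its exercise libraries spanned more than its groups differed (adjusted p = 0.162). Uqcrq had 83.6, 1706, 1123 and 734 FPKM in control and 48.0, 54.4, 257 and 1232 FPKM in exercise (adjusted p = 0.25).

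Uqcrb is a small subunit and 1 of the 3 members in the qPCR table. It had 41.3, 13.8, 27.5 and 28.1 FPKM in control, no read in Exe1 and Exe2, and 24.7 and 107 FPKM in Exe3 and Exe4. Its log2 difference of -1.89 ± 1.48 did not pass the test (adjusted p = 0.302). Uqcr11 had 273 to 330 FPKM in control and 8.80 to 1229 FPKM in exercise (adjusted p = 0.293). Cycs, the mobile carrier, had 5.89, 13.7, 17.8 and 14.2 FPKM in control and 0, 0.55, 7.95 and 31.6 FPKM in exercise, a log2 difference of -1.50 ± 1.10 (adjusted p = 0.273). In FPKM Exe4 was the highest of all 8 libraries for Uqcrb, Uqcr11, Cycs and Uqcrh, but in RPM a control was the highest for each of them. For Uqcr11 the groups did not overlap in RPM, with 207 to 273 in control and 8.90 to 196 in exercise.

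**Figure D2:**
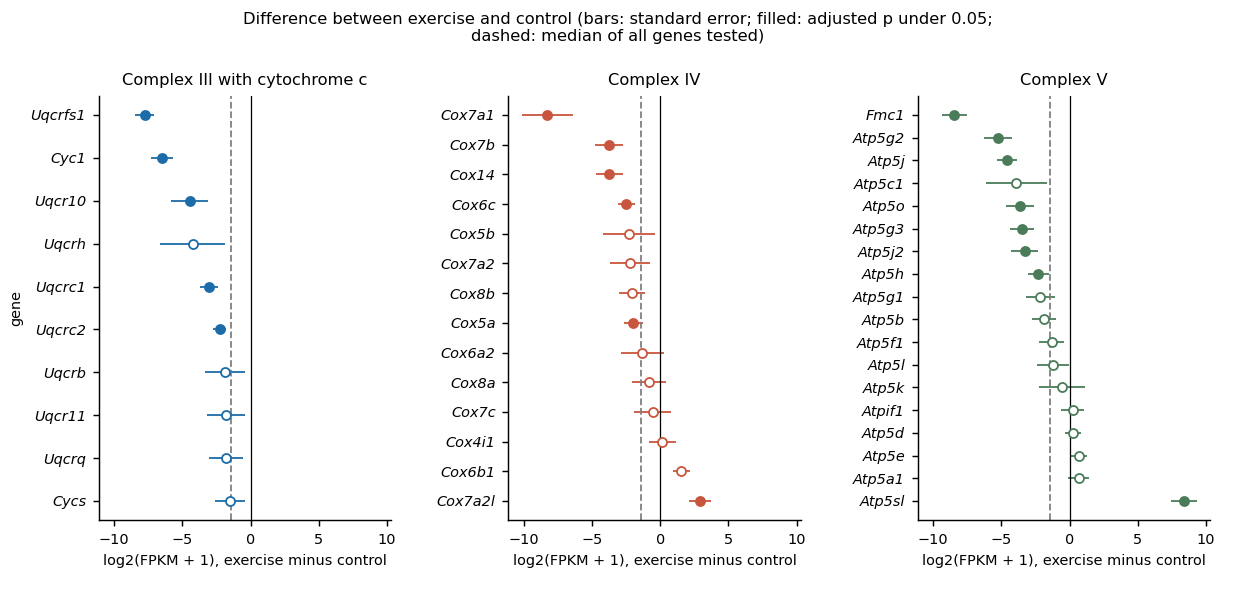
Difference in log2(FPKM + 1) between exercise and control for the 42 members tested, exercise minus control, with its standard error as a bar and filled points for an adjusted p under 0.05 (4 libraries a group). The dashed line is the median of all genes tested, -1.42, and the members range from -8.45 for Fmc1 to 8.37 for Atp5sl.

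In complex IV, Cox7a1 stood apart. Cox7a1 (ENSMUSG00000074218, chr7:30184144-30186078 on mm10) encodes the heart and muscle form of subunit 7a and is in the qPCR table too. It had 10719, 15.9, 27.8 and 1792 FPKM in Con1 to Con4, from 13154, 26, 58 and 3820 reads, and no read in any exercise library. The log2 difference was -8.28 ± 1.87 (adjusted p = 0.0119). The size rested on Con1, and on Con4, which resembles a sum that includes Con1. With all controls the exercise level was at least 400-fold lower. Without Con1 it was at least 78.0-fold lower, and without Con1 and Con4 at least 2.78-fold lower. The summed myofibre markers were highest in Con1 as well (19.7% of reads) and next highest in Con4 (14.4%), and their part in the level of Cox7a1 was not tested. In bulk samples fewer cells of a type and less RNA per cell cannot be told apart.

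The ubiquitous partner Cox7a2 had 394, 151, 198 and 204 FPKM in control and 6.34, 4.65, 157 and 768 FPKM in exercise, without passing the test (adjusted p = 0.226). Cox7a1 therefore made up 96.5%, 9.5%, 12.3% and 89.8% of the 2 forms in Con1 to Con4 and 0% in each exercise library. The latter rests on 10, 7, 164 and 209 reads of Cox7a2 in Exe1 to Exe4, too few in Exe1 and Exe2 to show a low share. Cox6a2, the muscle form of subunit 6a, was the main form in control, with 8.33, 57.6, 30.1 and 23.6 FPKM against 0 to 3.65 FPKM for the ubiquitous Cox6a1. In exercise Cox6a2 had 0, 0.92, 25.2 and 214 FPKM, from 0, 1, 19 and 42 reads, and its log2 difference was -1.32 ± 1.58 (adjusted p = 0.495). In RPM Cox6a2 was highest in Con2 (45.0), next highest in Exe4 (36.3), where Cox7a1 had no read, and at 5.56 in Con1, where Cox7a1 was highest.

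The forms of subunit 8 had few reads. Cox8a, the ubiquitous form, had 0.80, 15.0, 9.40 and 10.1 FPKM in control, 11.6 and 25.5 FPKM in Exe3 and Exe4, and none in Exe1 and Exe2 (adjusted p = 0.591). Cox8b, the muscle form, had 8.48, 16.3, 12.8 and 11.2 FPKM in control and 0, 0, 7.52 and 9.64 FPKM in exercise, where Exe4 rests on 1 read (log2 difference -2.06 ± 0.94, adjusted p = 0.106). In RPM its groups did not overlap, at 2.99 to 6.75 in control and 0 to 2.50 in exercise. Scaled to the read total it passed the test (adjusted p = 0.0341 in limma). Of the pair for subunit 4, Cox4i1 had the highest mean FPKM of all members over the 8 libraries, and Cox4i2, a form known from lung, had no read in any library. In Con1 Cox7a1 was higher than Cox4i1 (10719 FPKM), and in Exe4 Uqcrh was (6477 FPKM).

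Cox4i1 had 890, 14397, 8608 and 5606 FPKM in Con1 to Con4 and 12313, 12223, 6274 and 1014 FPKM in Exe1 to Exe4, and its log2 difference was 0.16 ± 1.0 (adjusted p = 0.901). It alone set the sum of complex IV in Exe1, with 12313 of 13090 FPKM. In RPM it had 30153 in Exe1 and 392 in Exe4, and 25644 in Con2 and 1352 in Con1, so each group held both high and low libraries. The sign of its difference was kept in 14 of 22 alternatives, and without Con1 the difference was -0.67.

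Other structural subunits of complex IV were called lower. Cox7b had 270, 47.6, 71.1 and 93.6 FPKM in control and 14.3, 17.6, 8.92 and 0 FPKM in exercise (log2 difference -3.74 ± 1.05, adjusted p = 0.0277). Cox6c had 98.4, 106, 163 and 126 FPKM in control and 19.6, 17.9, 16.7 and 32.1 FPKM in exercise, a 5.71-fold fall of the mean (log2 difference -2.48 ± 0.61, adjusted p = 0.0165). Cox5a had 81.1, 39.0, 37.6 and 33.7 FPKM in control and 14.2, 17.3, 10.3 and 4.95 FPKM in exercise, close to the threshold (adjusted p = 0.0491). In all 3 genes no exercise value reached a control value. The exercise libraries of Cox7b and Cox5a differed among themselves, with 29, 34, 12 and 0 reads and 50, 58, 24 and 3 reads in Exe1 to Exe4.

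The remaining structural subunits did not pass the test. Cox5b, a zinc-binding subunit, had 83.7 to 192 FPKM in control but 1.16, 0.81, 184 and 1051 FPKM in Exe1 to Exe4 (adjusted p = 0.331). Cox7c had 31.6, 12.4, 55.0 and 39.9 FPKM in control and 75.1, 83.7, 34.3 and 0 FPKM in exercise (adjusted p = 0.759). Cox6b1, which faces the intermembrane space, had 281, 98.2, 70.2 and 107 FPKM in control and 398, 471, 246 and 333 FPKM in exercise, and its log2 difference of 1.54 ± 0.63 missed the threshold (adjusted p = 0.0781).

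Cox7a2l, a relative of subunit 7a that joins complexes III and IV into supercomplexes, rose. It had 12.2, 62.4, 88.2 and 66.1 FPKM in control and 248, 290.1, 265 and 871 FPKM in exercise, a log2 difference of 2.93 ± 0.80 (adjusted p = 0.0252) and a mean 7.32-fold higher. The 4 exercise libraries also lay above all controls in RPM, with 249 to 525 against 13.7 to 131.

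Of the assembly factors of complex IV among the members, all but Cox14 were at the limit of detection. Cox14, which acts early on the core subunit encoded by mitochondrial DNA, was tested, with 22.3, 63.2, 41.8 and 24.3 FPKM in control and 0, 0, 2.49 and 14.4 FPKM in exercise, the last 2 from 2 and 3 reads. Its log2 difference was -3.72 ± 0.97 (adjusted p = 0.0212). Cox10 and Cox15, which make heme A, had at most 8 and 2 reads in a library, and Cox18 and Cox19 at most 5 and 6. No read was found for Cox11, Cox16, Cox17 and Cox20, nor for the forms Cox4i2, Cox6b2, Cox7b2 and Cox8c, and a count of 0 allows up to 0.000128% of the reads of a control library and 0.000297% of those of an exercise library. Intervals and limits of this kind cover counting error alone, because the reads come from amplified molecules.

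**Figure D3:**
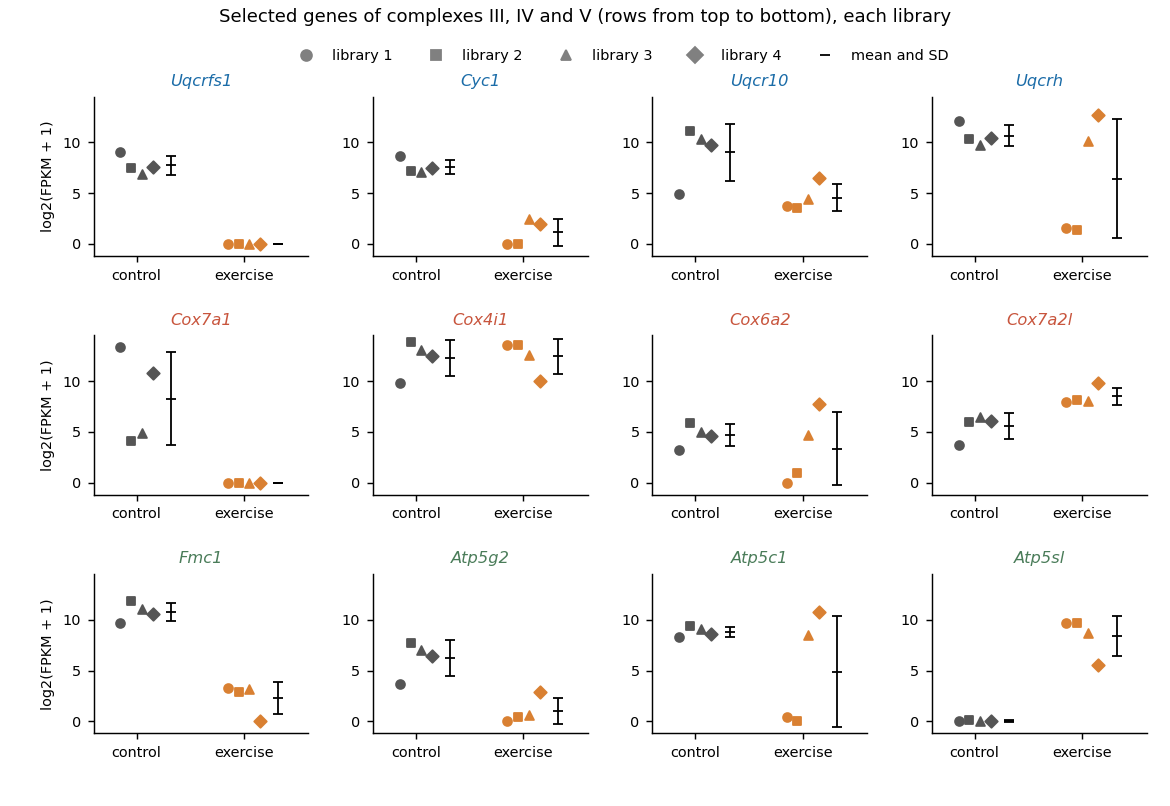
Level of 12 members, 4 per complex, as log2(FPKM + 1) in each library (symbols mark library 1 to 4 of a group), with the mean and SD of the 4 libraries beside them. Uqcrfs1 and Cox7a1 sit at 0 in all exercise libraries and Atp5sl at or near 0 in all controls, whereas Uqcrh, Cox4i1, Cox6a2 and Atp5c1 spread widely within a group.

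In complex V, Fmc1 had the most negative log2 difference of the tested members. This rank depends on the setting, since the lowest values over the alternatives were -9.40 for Fmc1, -11.1 for Uqcrfs1 and -11.6 for Cox7a1. Fmc1 (ENSMUSG00000019689, chr6:38533502-38539449 on mm10) encodes a factor for the assembly of the catalytic head of the ATP synthase. It had 812, 3637, 2125 and 1486 FPKM in Con1 to Con4, from 1283 to 7673 reads, and 8.68, 6.37, 7.85 and 0 FPKM in Exe1 to Exe4, from 10, 7, 6 and 0 reads. The mean was 352-fold lower in exercise and the log2 difference was -8.45 ± 0.90 (adjusted p = 0.000514), with no overlap. Atpif1, which inhibits the enzyme when it would split ATP, had at most 8 reads in a library, and its 4.33 RPM in Exe4 are 5 reads (adjusted p = 0.835).

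Subunits of the rotating and catalytic head were not called. Atp5a1 and Atp5b, the alpha and beta chains that form the catalytic sites, had 87.7 to 357 and 44.7 to 474 FPKM in control and 75.3 to 413 and 25.4 to 91.7 FPKM in exercise (adjusted p = 0.477 and 0.107). Atp5c1, the central shaft, had 308, 660, 533 and 384 FPKM in control, 0.31 and 0 FPKM in Exe1 and Exe2, and 361 and 1708 FPKM in Exe3 and Exe4 (adjusted p = 0.169). Atp5d had 3.06 to 5.76 FPKM in control and 3.27 to 8.69 FPKM in exercise (adjusted p = 0.745). Atp5e had 118 to 189.5 FPKM in control and 153 to 421 FPKM in exercise (adjusted p = 0.373), and was among the steadiest members over the 8 libraries.

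The peripheral stalk, which holds the head still, held 3 of the calls. Atp5j (coupling factor 6) had 183, 199, 152 and 110.2 FPKM in control and 3.25, 3.20, 4.32 and 17.7 FPKM in exercise, a 22.6-fold fall of the mean (log2 difference -4.61 ± 0.73, adjusted p = 0.00259). Its RPM were nearly level within each group, at 492 to 716 in control and 12.5 to 16.1 in exercise. Atp5o, the subunit that binds the top of the head and the third gene of the qPCR table, had 42.6, 380.2, 222 and 157 FPKM in control and 32.6, 27.5, 8.78 and 1.54 FPKM in exercise (log2 difference -3.65 ± 1.03, adjusted p = 0.0281). In RPM Con1 (94.4) fell below Exe1 (116) and Exe2 (97.9), so that the groups overlapped on that scale. Atp5h had 34.5 to 114 FPKM in control and 4.08 to 18.9 FPKM in exercise (log2 difference -2.30 ± 0.75, adjusted p = 0.0407), and Atp5f1 had 15.4 to 101 and 2.54 to 21.1 FPKM (adjusted p = 0.234).

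The 3 genes for subunit c encode proteins that are the same after the targeting sequence is removed and form the rotor ring in the membrane. Their values were unlike, but the genes were not tested against one another. Atp5g2 had 11.7, 217, 134 and 87.2 FPKM in control and 0, 0.37, 0.54 and 6.21 FPKM in exercise, from 5 reads in all, and its log2 difference was -5.26 ± 1.04 (adjusted p = 0.00699). Atp5g3 had 139, 154, 211 and 157 FPKM in control and 3.84, 11.5, 8.68 and 78.0 FPKM in exercise (log2 difference -3.49 ± 0.89, adjusted p = 0.0191). Atp5g1 had 196, 167, 302 and 238 FPKM in control and 11.1, 15.8, 73.1 and 404 FPKM in exercise, without passing the test (log2 difference -2.16 ± 1.07, adjusted p = 0.129). Atp5g1 made up 31.0% to 56.5% of the 3 genes in control and 57.1% to 88.8% in exercise, and Atp5g2 3.37% to 40.3% in control and 0% to 1.35% in exercise. In RPM Atp5g1 lay between 943 and 1921 in control and between 86.0 and 495 in exercise, with no overlap. Scaled to the read total, Atp5g1 passed the test too (adjusted p = 0.0332 in limma), as did Atp5g2 (0.00436) and Atp5g3 (0.00556).

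Among the membrane subunits beside the ring, Atp5j2 had 282, 173, 110.6 and 127 FPKM in control and 8.14, 2.46, 25.9 and 88.2 FPKM in exercise (log2 difference -3.29 ± 1.0, adjusted p = 0.0343). Atp5k and Atp5l, which link synthase dimers, had 9.20 to 17.1 and 3.65 to 32.3 FPKM in control and 0 to 253 and 0.65 to 49.5 FPKM in exercise (adjusted p = 0.793 and 0.396). Atp5s, a coupling factor, had 1 to 9 reads in control and none in exercise, and was not tested.

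Atp5sl (ENSMUSG00000057229, chr7:25619414-25625551 on mm10) was the other member that rose. Despite its symbol it encodes a factor known for the assembly of complex I, not a subunit of the synthase. It had 801, 842, 414 and 46.0 FPKM in Exe1 to Exe4, from 4043, 4059, 1385 and 40 reads, and 1 read among the controls, in Con2. The log2 difference was 8.37 ± 0.97 (adjusted p = 0.000681) and depends on the pseudocount. The share of reads was 23266 times higher in exercise, with an exact 95% interval of 4175 to 919050 that covers counting error only. Even the lowest exercise library, Exe4, had 34.6 RPM against 0.38 in Con2.

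The 11 calls that were not kept in every fit without 1 library were lost as follows, with the highest adjusted p from limma. Uqcrc2 was lost without Exe3 (0.0503). Uqcr10 (0.093), Cox14 (0.0704), Cox5a (0.12) and Atp5h (0.114) were lost without any one of Con2, Con3, Con4, Exe1, Exe2 and Exe3. Cox6c (0.0661) and Atp5g3 (0.0681) were lost without Con3, Con4, Exe1, Exe2 or Exe3, and Cox7a2l (0.0633) without Con4, Exe1, Exe2 or Exe3. Cox7b (0.0744) was lost without Con3, Con4 or Exe3, Atp5o (0.08) without these or Con2, and Atp5j2 (0.0874) without any library other than Exe4. Each of these genes kept its direction in all 22 alternatives, some of which leave the log2 difference unchanged by construction.

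Within the exercise group the members fell into opposite patterns, described here after their values were seen. Shares of reads were compared between Exe4 and the pooled Exe1 and Exe2, with counts under 3 set to 3, for the 33 members with at least 10 reads in an exercise library. In 11 the share was at least 4-fold higher in Exe4, in 12 at least 4-fold higher in Exe1 and Exe2, and in 10 neither. This split depends on the scaling. Within 4-fold by share, Uqcr10 had 12.3, 10.7 and 89.1 FPKM and Uqcrq 48.0, 54.4 and 1232 FPKM in Exe1, Exe2 and Exe4. Lower in Exe4 by share, Cox6b1 had 398, 471 and 333 FPKM there and Atp5d 8.69, 5.53 and 5.40 FPKM. Uqcrh was 591 times higher in Exe4, with 4, 3 and 2309 reads in Exe1, Exe2 and Exe4. Cox5b was 168 times higher, with 3, 2 and 470 reads, and Atp5c1 had 1, 0 and 939 reads. On the opposite side, Cox4i1 had 31911, 30229 and 453 reads, Atp5a1 2150, 2066 and 68 reads, and Cox7c 142, 151 and 0 reads.

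By share of reads, each complex held members of both kinds. In complex III, Cycs, Uqcr11, Uqcrb and Uqcrh were higher in Exe4 and Uqcrc1 lower. In FPKM Uqcrc1 differed less, with 1.45 and 3.18 in Exe1 and Exe2 and 0.84 in Exe4, from 1 read. In complex IV, Cox5b, Cox6a2 and Cox7a2 were higher in Exe4, and Cox4i1, Cox5a, Cox6b1, Cox7b and Cox7c lower. In complex V, Atp5c1, Atp5g1, Atp5k and Atp5l were higher in Exe4, and Atp5a1, Atp5b, Atp5d, Atp5f1, Atp5o and Atp5sl lower. Within 4-fold were, among others, Uqcr10, Cox6c, Cox7a2l, Atp5j and Atp5e. Summed over complex III, RPM were 180.5 and 204 in Exe1 and Exe2, 1980.5 in Exe3 and 2822 in Exe4, all below the 5949 to 7734 of control. In FPKM the sums were 80.5, 79.5, 1741 and 9169 in Exe1 to Exe4 and 3678 to 5872 in control, so Exe4 was the highest there. For complex IV the sums in RPM were 31379, 31282, 9977 and 1364 in Exe1 to Exe4, with 8568 to 27047 in control. The spread in exercise is mainly that of Cox4i1, since without it the sums were 1226, 1404, 993 and 972 in exercise and 1403 to 7216 in control. Of these control sums, Cox7a1 alone held 5621 of 7216 in Con1 and 1369 of 3208 in Con4.

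**Figure D4:**
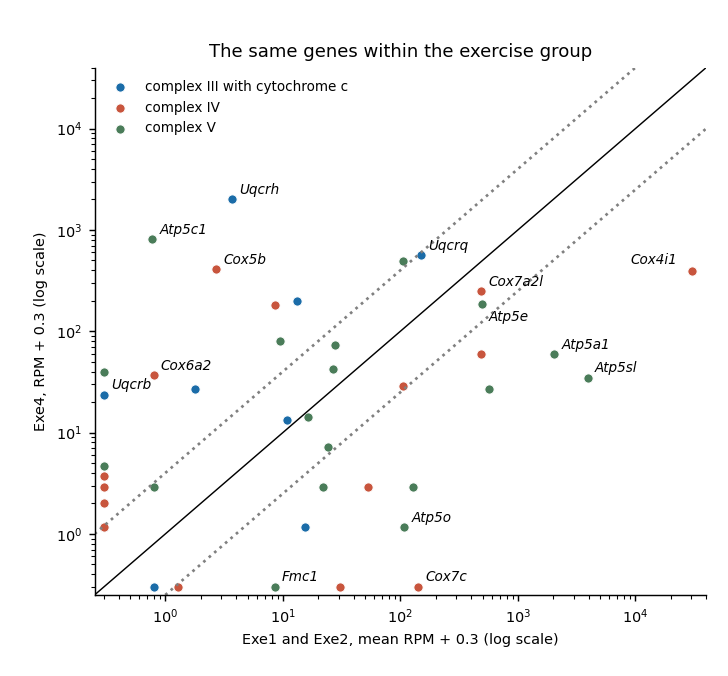
RPM of each member in Exe4 (vertical) against the mean of Exe1 and Exe2 (horizontal), both on log axes after adding 0.3, coloured by complex. Points beyond the dotted lines differ by over 4-fold, with Uqcrh and Atp5c1 farthest above them and Cox4i1, Atp5sl and Atp5o among those below.

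The controls varied too, mainly between Con1 and the others. By the same 4-fold measure, Con1 was lower than the pooled Con2 and Con3 for 11 members and higher for 2, and 28 were within 4-fold. Those lower in Con1 were Uqcr10 (75.2 times), Uqcrq (20.7 times), Cox4i1 (15.7 times), Cox6a2, Cox7a2l, Cox8a, Atp5b, Atp5g2, Atp5l, Atp5o and Fmc1. Those higher were Cox7a1 (380.0 times) and Atp5f1 (4.98 times). Atp5f1 lies opposite Wdr77, which had 14377 reads in Con1, 0 in Con2 and 133 in Con3, and the counting is not stated to use strand, so reads of the 2 genes cannot be told apart.

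Promoters were read from RefSeq tables of GRCm38.p6, which matched 41 of the 56 members, 14 of them called lower. In the 250 bases before the start, on both strands, the NRF1 motif (GCGCA followed directly by TGCGC) was found in 3 of the 41 members and in 0.877% of 27025 genes, and the GABP-type motif CCGGAAG in 11 members and 7.83% of genes. NRF1 and GABP are factors long known to act on respiratory chain genes. A CCAAT box (CCAAT) was found in 20 members and 37.5% of genes, and TATAAA in 3 members and 14.3%. Of the 14 members called lower, 1 held the NRF1 motif, 2 the GABP motif and 7 a CCAAT box. Uqcrfs1 and Cox7a1, the tested members with no exercise read, are shown first, each as the part of this window outside annotated exons, in lower case with motif matches in capitals, followed by 30 bases around the NRF1 match of Atp5g2, which had 5 exercise reads.
Uqcrfs1 promoter, chr13:30545363-30545566, minus strand: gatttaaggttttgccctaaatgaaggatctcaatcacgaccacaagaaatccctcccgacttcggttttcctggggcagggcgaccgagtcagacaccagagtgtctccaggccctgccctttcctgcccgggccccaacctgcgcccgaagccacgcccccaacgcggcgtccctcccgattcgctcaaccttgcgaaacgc
Cox7a1 promoter, chr7:30183921-30184143, plus strand: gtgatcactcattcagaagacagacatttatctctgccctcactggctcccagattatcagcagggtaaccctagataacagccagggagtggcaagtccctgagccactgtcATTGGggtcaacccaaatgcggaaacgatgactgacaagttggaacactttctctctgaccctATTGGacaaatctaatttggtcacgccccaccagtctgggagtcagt
Atp5g2 site, chr15:102671070-102671099, minus strand: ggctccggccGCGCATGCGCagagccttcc
The capitals in Cox7a1 are 2 reverse-strand CCAAT boxes, and the Uqcrfs1 stretch held none of the first 3 motifs. The match in Atp5g2 lies 33 to 42 bases before the RefSeq start, but the gene model of the deposited values starts farther upstream, at 102672352. The site is thus inside that model, in exon 1 of another transcript of the gene in GENCODE M21. These matches describe the letters of the window only.

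Reads of some members may belong to near copies. A stretch of at least 100 bases that is at least 97% alike in another annotated gene was found for 22 members, 17 of them tested, and it covered over 50% of the transcript of 5 tested members (Uqcrb, Atp5f1, Atp5h, Atp5l and Atp5o) and of 3 with no read (Cox11, Cox16 and Cox20). Their values are uncertain to that extent. Atp5h, for example, had 384, 212, 197 and 254 reads in control and 10, 39, 12 and 8 in exercise, and its copy Gm10250 had 74, 51, 30 and 49 and then 24, 16, 18 and 20. In all, 5 of the tested members, Uqcrh, Cox6c, Atp5f1, Atp5j and Atp5o, overlap another gene with reads, and the deposited Atp5o model runs from 91684398 to 91931687 on chromosome 16. Uqcrfs1, Cyc1, Cox7a1, Fmc1 and Atp5sl had neither a copy of this kind nor an overlapping gene with reads.

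Other genes of the pathway, listed by function and not by how they moved, were looked at beside the members. Of 69 such genes, 55 had a read, 40 were tested, and 12 were lower and 1 higher in exercise. These are 30% and 2.5% of those tested, against 26.8% and 8.78% of all genes, so the share called lower was near that of genes in general. Ndufa4, a subunit of complex IV despite its name, had a log2 difference of -8.10 ± 0.76 (adjusted p = 0.000446), and Usmg5 and 2010107E04Rik, small subunits of complex V, had 0.09 ± 0.57 and 0.16 ± 0.81. Among assembly factors the calls were Uqcc2 (-3.96 ± 0.93) for complex III, Cmc2 (-1.61 ± 0.43) and Higd2a (-2.80 ± 0.88) for complex IV and Tmem70 (-3.04 ± 0.60) for complex V. Complex II had 3 calls of 6 tested, Sdha (-3.20 ± 0.72), Sdhc (-5.35 ± 1.70) and Sdhd (-5.16 ± 1.34), which is 50% against 26.8% of all genes called lower. Like Cox7a1, Sdhc rested on Con1 and Con4, with 7351, 35, 27 and 2563 reads in Con1 to Con4 and none in exercise. Esrra (-4.11 ± 1.15), a nuclear receptor that drives respiratory genes, and Tfb2m (-2.79 ± 0.59), a factor for mitochondrial transcription, were both called lower, and 4 of the 13 regulators had no read. Among the other mitochondrial genes, Hspd1 (-5.30 ± 0.62), a chaperonin of the matrix, and Vdac1 (-3.66 ± 0.76), a channel of the outer membrane, were called lower. The single gene that rose was Vdac3 (2.83 ± 0.83), another form of this channel.

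The subunits of complexes III, IV and V that mitochondrial DNA encodes went the opposite way in value but not in a call. None of the 6 had an adjusted p under 0.05 in limma, their median log2 difference was 1.95, and the adjusted p values ran from 0.201 for mt-Co3 to 0.686 for mt-Co1. They took 0.123% to 1.25% of control reads, 0.235% and 0.203% of the reads of Exe1 and Exe2, and 3.71% and 5.07% of those of Exe3 and Exe4.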

How the data were processed

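Sorted SCs of 4 control and 4 exercise samples were sequenced after amplification with a kit for single cells. The submitters' processing notes name Bowtie 0.12.9, Cufflinks 2.1.1, HTSeq and mm10. The authors deposited 1 table of FPKM, in which the library size is a median-of-ratios size factor, and its low values step in whole reads (100% of values within 0.001). Columns were matched to samples by title, and all 8 samples were used.

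Rows that share a symbol were summed (101 fewer) and genes whose mean reached 1 FPKM were kept. The limma package (3.58.1, R 4.3.3) compared the groups on log2(FPKM + 1) by lmFit and trended eBayes, and p values of the 4328 genes were adjusted by Benjamini-Hochberg. The fit was also run on simulated data with independent libraries and no low levels. That run does not check genes without reads or libraries that resemble each other. Sums, shares and counts were computed in Python 3.11.15, and near copies were searched with blastn 2.17.0 in GENCODE M21, which holds all 56 members, 51 with the deposited coordinates. The members, gene lists and tests were chosen with earlier results of these data known. Genes described with full values were those of the qPCR table, the 5 largest calls of each complex, every call that rose, the 2 highest means and the largest rise of each complex, and the isoform families, with other members added for completeness.

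The alternatives were a pseudocount of 0.1, no filter, a filter of 1 FPKM in 4 libraries, quantile normalization, constant sums, no trend, array weights, a replicate block, rows kept apart, voom on the recovered reads, each library left out, and fits with libraries averaged or left out. Scaling to the read total was added after seeing the data. The libraries held 1011737 to 3013354 reads, and the spread between libraries of a group, at a chi-square per degree of freedom of 82.6 or more for all pairs other than exercise 1 and 2, exceeds counting error.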

Additional observations from a re-analysis of the deposited data

Results flagged for a closer look

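In 62 groups of 4 libraries, for the genes described by rule and the sum of each complex, 8 had 1 library far from the other 3 by Dixon's test, where chance flags about 1 in 20 groups (3.1 here) if the libraries are independent, which the likeness of Exe1 and Exe2 leaves in doubt. In 4 of the 8 the other 3 libraries were all at 0, so that any read there is marked. Values are log2(FPKM + 1). Exe4 was high for Cox7a2l (9.77, others 7.96 to 8.19), Atp5j (4.23, others 2.07 to 2.41), Atpif1 (3.70, others 0) and the sum of complex V (11.65, others 10.52 to 10.70), and low for Fmc1 (0, others 2.88 to 3.28). In RPM Exe4 was not the highest exercise library for Cox7a2l or Atp5j, whose values there were 249 and 13.8, and for the sum of complex V it was the lowest (1880, others 3644 to 7724). Exe2 was the only exercise library with reads of Uqcrc2 (0.32, from 1 read) and Cox6a1 (1.48, from 2 reads), and Con2 the only control with a read of Atp5sl (0.15).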

How the results depend on the processing

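Of 19 calls among the members, all kept their direction in all 22 alternatives of the fit, and 8 stayed calls in every fit without 1 library. Direction could not turn with either changed filter, no trend, the replicate block or rows kept apart, which leave the log2 difference of a member unchanged. The number of members called was 35 with array quality weights, 9 with quantile normalization, 11 when exercise 1 and 2 were averaged and 0 when the fit also dropped control 4 and exercise 3 (5 samples, limma, 10 with an unadjusted p under 0.05). The shares called were 83.3% of members and 68.8% of all genes with array quality weights, and 27.1% and 9.30% with no filter. In the same order the number called lower was 31, 7, 10 and 0, and 11 with no filter, and the number called higher was 4, 2, 1 and 0, and 1 with a constant sum. Lower calls were 10, 2, 4 and 0 for complex III, 10, 1, 2 and 0 for complex IV, with 3 under no filter and 3 under the replicate block, and 11, 4, 4 and 0 for complex V, with 4 under no filter. For the other genes of the pathway the calls were 26, 10, 7 and 0, and 8 with no filter. Without 1 library, 8 to 22 members were called, 7 to 20 lower and 1 to 3 higher, with 3 to 5 lower in complex III, 1 to 7 in complex IV and 3 to 8 in complex V, and 6 to 17 calls among the other genes. The median log2 difference of the members was -0.69 below that of all genes, and this gap was -2.53 with array quality weights and -1.30 to -0.15 without 1 library, and turned to 0.11 with a pseudocount of 0.1 and 0.47 with groups under 3 reads at 3 reads. Voom on the recovered reads called 16 members and 1242 genes. The cause of these changes was not tested, though the fit of 5 samples by its construction holds fewer samples.

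Of the genes described by rule, 2 changed sign. Cox4i1 was at -0.55 with a constant sum, -0.44 in the fit of 5 samples, -0.22 with exercise 1 and 2 averaged, -0.11 with quantile normalization, -0.31 scaled to the read total, and -0.67 to 0.98 without 1 library. Atpif1 was at -0.65 with array quality weights, -0.0062 with a constant sum without the mitochondrial genome, -0.70 with a pseudocount of 0.1 and -0.0041 to 0.54 without 1 library, with the sign turned without control 1. Of 612 recomputed values of single genes, 515 kept direction and side of the threshold, 68 lost and 17 gained a call. Deviations from the group means correlated at -0.017 to 0.039 between same-numbered samples of the groups and at -0.038 to 0.038 between the others. With so few libraries this cannot exclude a pairing or a shared batch behind the numbers. With the replicate number as a block 15 members were called, 13 lower and 2 higher, without Cox5a, Cox6c, Atp5h and Atp5j2. The block leaves each log2 difference as it is, so no direction could change. Over all genes tested, the calls were 1541, and 596 with exercise 1 and 2 averaged, 1059 under the block and 0 in the fit of 5 samples. At these depths the members from Cox10 to Cox20 other than Cox14 had 8 reads or fewer in each library and fell under the filter on low values.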
